A study of Mus musculus with 12 samples.

Results

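RNA polymerase III was followed through 10 genes: 7 subunits of the enzyme (Polr3a, Polr3b, Polr3c, Polr3d, Polr3e, Polr3g and Polr3gl), the TFIIB-related factors Brf1 and Brf2, and the repressor Maf1. They were chosen by gene symbol and are 10 of the 55450 genes in the table. The libraries hold total RNA of brain or liver from male mice of 7 to 9 weeks, either wild type (Vaultrc5+/+) or knockout (Vaultrc5-/-) for the vault RNA gene Vaultrc5. Each of the 4 groups (wild-type brain, knockout brain, wild-type liver, knockout liver) held 3 libraries, made from whole-tissue RNA after ribosomal RNA depletion. The labels name no treatment and no Cre driver, and the titles of the control libraries read flx while their genotype label reads wild-type. The labels do not say how the knockout was made or from which animal each library came, so p-values measure the spread between libraries.

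RNA polymerase III makes short non-coding RNAs, among them transfer RNAs, 5S ribosomal RNA, U6, 7SK and the vault RNAs. Polr3a and Polr3b form the catalytic centre, Polr3c belongs to a subcomplex that helps to open the promoter together with either Polr3g or its paralogue Polr3gl, and Polr3d pairs with Polr3e. Brf1 is part of the TFIIIB factor that recruits the enzyme to transfer RNA and 5S genes, Brf2 takes its place at U6-type promoters, and Maf1 represses the enzyme when nutrients or growth signals are short.

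Vaultrc5, the targeted gene, had 4, 1 and 4 counts in wild-type brain and 33, 39 and 48 in wild-type liver, against 0 in each of the 6 knockout libraries. Each brain library summed to between 14844971 and 18567381 counts, and each liver library to between 23247449 and 27155480. The 10 most abundant genes took 9.99% to 11.7% of counts in brain and 19.3% to 20.1% in liver. All 5 neuron markers were higher in wild-type brain and all 5 hepatocyte markers higher in wild-type liver. The brain libraries differed in cerebellar markers. Summed over 5 cerebellar granule and Purkinje cell markers, the level was 1040, 77.7 and 263 CPM (counts scaled to library size, with TMM factors) in wild-type replicates 1 to 3 and 977, 58.8 and 451 CPM in knockout replicates 1 to 3, so that both replicate 2 libraries were lowest. In liver, the sum of 5 macrophage markers was highest in knockout replicate 2, at 233 CPM against 102 to 140 CPM in the other 5 libraries.

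All 10 genes were expressed in all 12 libraries and passed the low-count filter in every comparison. Levels between genes were compared as CPM per kb of annotated exon. In wild-type brain Maf1 stood first at 9.26 ± 0.589 CPM per kb (SD, n = 3), followed by Polr3gl at 5.45 ± 0.902 and Polr3a at 5.13 ± 0.28, whose ranges overlapped. Polr3e, Polr3d, Polr3c and Brf1 followed between 4.11 and 3.07 CPM per kb, each overlapping its neighbour in this order. Polr3b (2.65 ± 0.194), Brf2 (1.88 ± 0.115) and Polr3g (0.87 ± 0.152 CPM per kb, SD, n = 3) came last, without overlap between them. In wild-type liver Polr3c was first at 6.87 ± 0.201 CPM per kb, then Maf1 at 6.45 ± 0.216 and Polr3a at 5.28 ± 0.345, with no overlap among these 3. Polr3gl (4.53 ± 0.452) and Polr3b (4.34 ± 0.202) overlapped, Brf1, Polr3e, Polr3d and Polr3g followed between 2.99 and 2.24 CPM per kb with overlapping neighbours, and Brf2 was last at 1.51 ± 0.299. Polr3c thus moved from rank 6 in wild-type brain to rank 1 in wild-type liver. Some of the order depends on the length used. The longest protein-coding transcript of Brf1 has 2615 bases, against 7788 bases of all its exons. Over the longest protein-coding transcripts Brf1 ranked 2 in wild-type brain and 3 in wild-type liver, in place of 7 and 6. In wild-type brain Brf2 (3.17 CPM per kb) then ranked above Polr3b (2.8), and Polr3a (6.38) above Polr3gl (6.1), each pair with overlap. In wild-type liver Polr3g (2.88) and Brf2 (2.56 CPM per kb), still last, then overlapped.

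**Figure D1:**
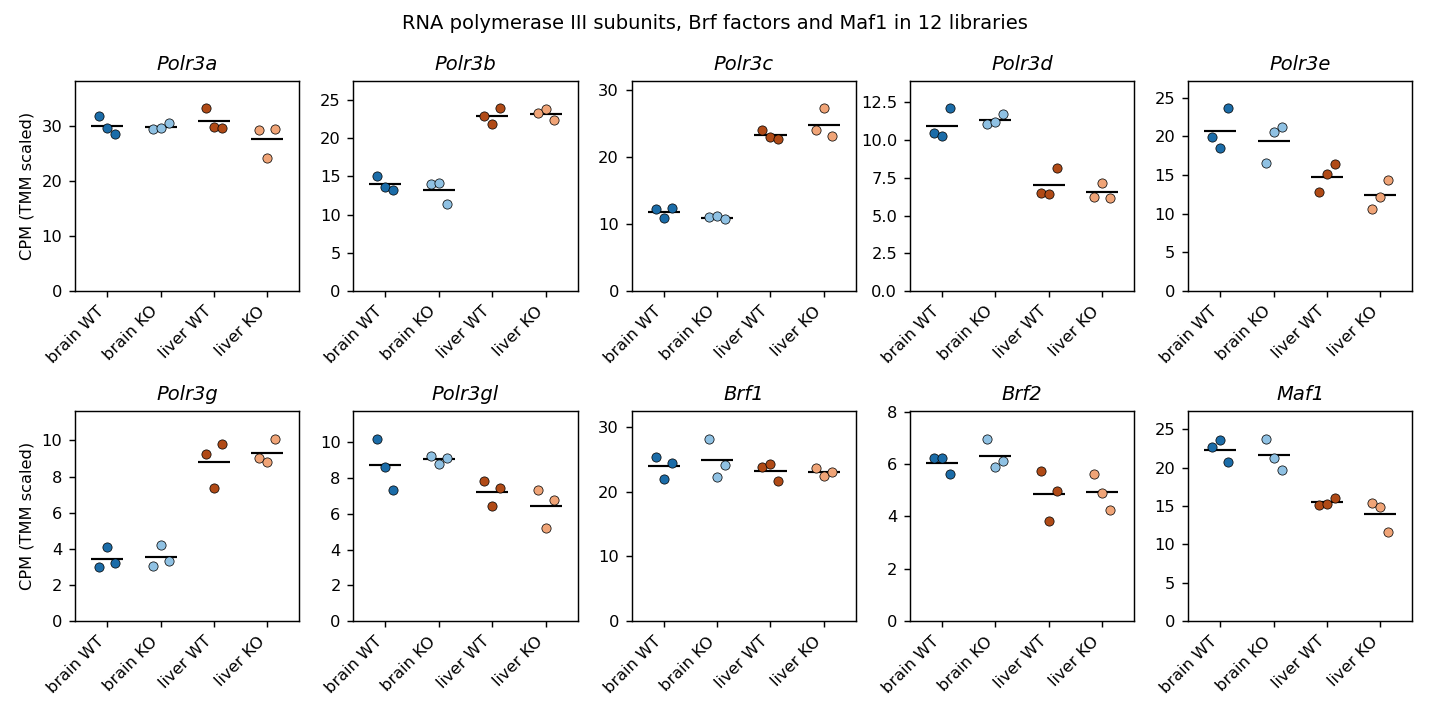
CPM of each of the 10 genes (vertical axes, linear and starting at 0, scaled by TMM over the 12 libraries) in wild-type (WT) and knockout (KO) brain and liver; points are libraries, replicates 1 to 3 from left to right, and bars are group means. On this scale, Polr3b, Polr3c and Polr3g lie higher in every liver library than in every brain library (the sign of Polr3b turns with library totals), Polr3d, Polr3e and Maf1 lie higher in brain, and wild type and knockout lie close together within a tissue.

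The first comparison asked how the 10 genes differ between brain and liver, in wild type and again in the knockout libraries, which are separate from the wild-type ones. The subunits differed in both directions. Polr3b, Polr3c and Polr3g were higher in liver in both genotypes with TMM scaling, by 1.63-fold to 2.55-fold in wild type; scaled by library totals, Polr3b turned to a small positive value and Polr3c was called in knockout alone. Polr3d, Polr3e and Maf1 were higher in brain in both genotypes, by 1.40-fold to 1.57-fold in wild type. Polr3a, Brf1 and Brf2 passed the test in neither genotype, and Polr3gl was called higher in brain only among knockout libraries. A gene was called at an adjusted p under 0.05 in edgeR's quasi-likelihood test, with Benjamini-Hochberg adjustment over all genes tested. In wild type 6 of 10 were called, where 78.6% of all genes were: 3 higher in brain (43.9% of all genes) and 3 in liver (34.7%). Among knockout libraries 7 of 10 were called against 78.7% of all genes, 4 of them higher in brain (43.5%) and 3 in liver (35.2%). The CPM of the 3 brain and 3 liver libraries did not overlap for 6 of 10 genes in wild type and for 9 of 10 in the knockout, against 82.4% of all genes in either genotype. The median absolute log2 fold change of the 10 genes was 0.51 in wild type and 0.62 in knockout, below the 1.55 and 1.54 of all genes tested. Under library totals it was 1.00 and 1.10, beside 1.76 and 1.77. In whole-tissue RNA a smaller number of expressing cells and less RNA per cell cannot be told apart.

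The tissue values rest on the scaling between brain and liver. TMM factors lay between 1.31 and 1.38 for brain and between 0.708 and 0.769 for liver, and scaling by library totals instead moved the all-gene median of the log2 fold change from 0.21 to 1.05 in wild type and to 1.08 in knockout. All genes called then split into 11635 higher in brain and 3997 higher in liver in wild type, in place of 8275 and 6542, and into 11668 and 3871 in knockout, in place of 8178 and 6611. Under library totals 7 of the 10 genes were called higher in brain in either genotype, where 61.7% of all genes were in wild type and 62.1% in knockout. Called higher in liver were 1 of 10 in wild type (21.2% of all genes) and 2 of 10 in knockout (20.6%). Directions below are therefore relative to the other genes.

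Catalytic subunits. Polr3a (ENSMUSG00000025280.8; GRCm38 chr14:24448696-24487058, minus strand), the largest subunit, had 31.7, 29.5 and 28.5 CPM in wild-type brain and 33.1, 29.8 and 29.5 CPM in wild-type liver. The tissues overlapped, with a log2 difference (brain minus liver) of -0.04 ± 0.10 (SE; adjusted p = 0.754). In the knockout it was 0.10 ± 0.11 (edgeR adjusted p = 0.441). With library totals Polr3a was instead called higher in brain, at 0.80 in wild type and 0.97 in knockout. Polr3b (ENSMUSG00000034453.8; chr10:84622292-84727178, plus strand), the second largest subunit, had 15.1, 13.6 and 13.2 CPM in wild-type brain and 22.9, 21.8 and 23.9 CPM in wild-type liver. Knockout libraries gave 14.0, 14.1 and 11.4 CPM in brain and 23.3, 23.8 and 22.4 CPM in liver. Each of the 6 liver libraries was above each of the 6 brain libraries. The log2 difference was -0.71 ± 0.11 in wild type (1.63-fold higher in liver, edgeR adjusted p = 0.000678) and -0.83 ± 0.12 in knockout (1.78-fold, adjusted p = 0.000515). Under library totals the sign of Polr3b turned, to 0.13 (adjusted p = 0.335) and 0.05 (adjusted p = 0.717). Polr3b thus passed the test with TMM scaling and Polr3a did not, and the difference between them was not tested.

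Promoter-opening subunits. Polr3c (ENSMUSG00000028099.8; chr3:96711490-96727628, minus strand) had 12.3, 10.9 and 12.4 CPM in wild-type brain and 24.0, 23.0 and 22.8 CPM in wild-type liver. Knockout libraries gave 11.0, 11.2 and 10.7 CPM in brain and 24.1, 27.3 and 23.1 CPM in liver. The lowest liver library was above the highest brain library in both genotypes. Polr3c differed on the log2 scale by -0.97 ± 0.11 in wild type (1.95-fold higher in liver, edgeR adjusted p = 0.000114) and -1.19 ± 0.12 in knockout (2.28-fold, adjusted p = 4.53e-05). Under library totals it was -0.13 in wild type, no longer called (adjusted p = 0.358), and -0.31 in knockout (adjusted p = 0.0296).

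Polr3g and Polr3gl encode alternative versions of the same subunit. Polr3g (ENSMUSG00000035834.11; chr13:81673843-81711013, minus strand) is known from stem cells and tumours, and Polr3gl (ENSMUSG00000028104.14; chr3:96577872-96594181, minus strand) from differentiated tissue. Short reads can be shared between paralogues only where the sequences are the same. The coding sequences in GENCODE M21 (672 bases for Polr3g, 657 for Polr3gl) were identical at 401 of 632 aligned bases (63.4%), and the longest run they share is 14 bases. These stretches are shown because they hold that run, in capitals, at bases 532 to 605 of the Polr3g and 517 to 590 of the Polr3gl coding sequence:
Polr3g: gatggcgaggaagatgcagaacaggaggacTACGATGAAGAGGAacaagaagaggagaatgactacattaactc
Polr3gl: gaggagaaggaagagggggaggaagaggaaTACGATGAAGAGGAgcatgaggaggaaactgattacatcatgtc

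The run lies in a GA-rich stretch of both genes and continues into different bases on either side. No fractional count was given to any of the 10 genes in any library. Brf1 and Brf2 were likewise apart, with a longest shared run of 10 coding bases.

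Polr3g had 67, 100 and 75 counts in wild-type brain, or 2.97, 4.10 and 3.21 CPM, and 164, 148 and 187 counts in wild-type liver, or 9.23, 7.38 and 9.80 CPM. The knockout libraries had 3.07, 4.19 and 3.35 CPM in brain and 9.05, 8.79 and 10.1 CPM in liver. All liver libraries lay above all brain libraries in both genotypes. Brain minus liver, the log2 value was -1.35 ± 0.21 in wild type (2.55-fold higher in liver, edgeR adjusted p = 0.000483) and -1.41 ± 0.18 in knockout (2.66-fold, adjusted p = 0.000226). With TMM scaling it was the largest difference among the 10 genes in both genotypes, and Polr3g was still called higher in liver under library totals (-0.52, adjusted p = 0.0468, and -0.54, adjusted p = 0.0318).

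Polr3gl was not called in wild type and was called higher in brain in knockout. It had 10.2, 8.62 and 7.31 CPM in wild-type brain and 7.83, 6.43 and 7.45 CPM in wild-type liver, which overlapped, with a log2 difference of 0.27 ± 0.18 (edgeR adjusted p = 0.193). In the knockout it had 9.25, 8.78 and 9.09 CPM in brain and 7.32, 5.18 and 6.79 CPM in liver, without overlap. That difference was 0.48 ± 0.17 (1.39-fold, adjusted p = 0.0358). Its call, but not its direction, was lost on leaving out any of 5 of the 6 libraries: the difference was 0.46 to 0.50 without brain replicate 1, 2 or 3 or liver replicate 3, and 0.32 without liver replicate 2 (adjusted p = 0.0621 to 0.104).

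The ratio of Polr3g to Polr3gl counts within a library does not depend on how libraries are scaled. Its log2 value was -1.34 ± 0.38 in wild-type brain and 0.28 ± 0.10 in wild-type liver (SD, n = 3), a ratio 3.07-fold lower in brain. In the knockout it was -1.36 ± 0.27 in brain and 0.55 ± 0.23 in liver, 3.75-fold lower in brain. The libraries of the 2 tissues did not overlap in either genotype, and the two-sided exact permutation p was 0.1 in each, the smallest that 3 libraries against 3 allow (0.24 after adjustment over 12 ratio tests). Per kb of exon, Polr3g made up 10.6%, 16.2% and 15.1% of the pair in wild-type brain and 32.4%, 31.8% and 34.8% in wild-type liver. In the knockout Polr3g made up 11.9%, 16.2% and 13.0% of the pair in brain, and in liver its shares were 33.4%, 40.8% and 37.6%. Polr3gl was thus the larger part of the pair per kb in every library, and the share of Polr3g was 14.0% ± 2.98 and 33.0% ± 1.62 in wild-type brain and liver (SD, n = 3) and 13.7% ± 2.26 and 37.3% ± 3.68 in the knockout.

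**Figure D2:**
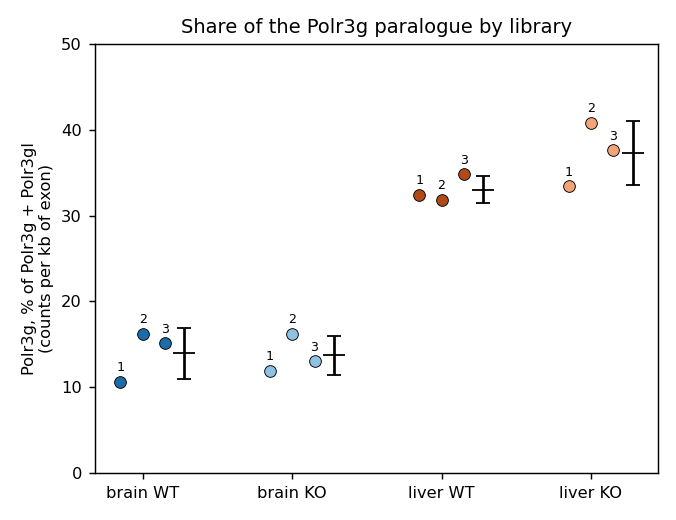
Percent of Polr3g in the sum of Polr3g and Polr3gl, in counts per kb of annotated exon (vertical axis), for each library of wild-type (WT) and knockout (KO) brain and liver; numbers are replicates, and bars beside the points are mean ± SD. Brain libraries lie between 10.6% and 16.2% and liver libraries between 31.8% and 40.8%.

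Among brain libraries of either genotype, both replicate 2 libraries had the highest Polr3g level, at 4.10 and 4.19 CPM against 2.97 to 3.35 CPM in the other 4. These are also the libraries with the lowest cerebellar marker sum, 77.7 and 58.8 CPM against 263 to 1040 CPM. Other marker sums set the same libraries apart. Neuron sums were highest there (3490 and 3320 CPM against 2660 to 2970 CPM), as were macrophage and microglia sums (81.3 and 86.8 CPM against 50.4 to 70.4 CPM). Astrocyte sums were lowest (663 and 684 CPM against 787 to 1090 CPM), as were choroid plexus sums (3.2 and 4.45 CPM against 5.74 to 40.0 CPM) and those of the hepatocyte list, which in the other 4 came mostly from Ttr (0.451 and 2.25 CPM against 4.36 to 438 CPM). Sums of oligodendrocyte, endothelial, red cell and proliferation markers did not set both apart. For oligodendrocytes they were at 1280 and 2330 CPM, within or below a range of 1430 to 4440 CPM in the other 4. Their part in the Polr3g level was not tested. Without one replicate at a time the tissue difference of Polr3g stayed between -1.57 and -1.27 in wild type and between -1.57 and -1.30 in knockout.

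The 2 promoters are shown because the ratio of these paralogues did not overlap between the tissues. RefSeq tables on GRCm38.p6 matched 5 of the 10 genes (Polr3b, Polr3c, Polr3e, Polr3g and Polr3gl). The 250 bases before the annotated start were searched on both strands for the E-box CACGTG, the GC box GGGCGG, the CCAAT box CCAAT and the TATA box TATAAA. Matches are in capitals, on whichever strand, and the sequences read 5′ to 3′ toward the gene (Polr3g at chr13:81711014-81711263, Polr3gl at chr3:96594182-96594431, both minus strand):
Polr3g: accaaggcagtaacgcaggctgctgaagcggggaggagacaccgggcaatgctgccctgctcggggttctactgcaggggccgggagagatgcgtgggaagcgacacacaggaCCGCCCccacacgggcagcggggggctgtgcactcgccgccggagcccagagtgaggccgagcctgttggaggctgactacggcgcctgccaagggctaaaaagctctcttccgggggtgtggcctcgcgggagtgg
Polr3gl: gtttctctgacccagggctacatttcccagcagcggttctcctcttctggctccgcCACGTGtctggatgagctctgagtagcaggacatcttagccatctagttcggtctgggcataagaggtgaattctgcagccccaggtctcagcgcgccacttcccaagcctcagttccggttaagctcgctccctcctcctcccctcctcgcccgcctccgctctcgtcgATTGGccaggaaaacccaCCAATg

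Polr3g held 1 GC box, read on the reverse strand and beginning 137 bases before the start. Polr3gl held 1 E-box beginning 194 bases before the start and 2 CCAAT boxes beginning 24 and 6 bases before it. No match overlapped another, and neither window held TATAAA. Of 32851 promoter windows of this length, 32.7% held a GC box, 6.0% an E-box, 33.8% a CCAAT box and 12.4% TATAAA. GC content was 68.4% for Polr3g and 59.2% for Polr3gl, against a median of 52.4% over all windows.

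The genes closest to the 2 paralogues in profile were taken by the Euclidean distance between centred log2 CPM over the 12 libraries, among 16608 genes. Nearest to Polr3g were Riox2 (distance 0.339), Hnmt (0.36) and Bbs10 (0.386). Riox2 had a mean of 5.38 CPM in wild-type brain and 14.5 CPM in wild-type liver. Nearest to Polr3gl were Zfp748 (0.285), Riok1 (0.332) and Zfp574 (0.337).

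Polr3d and Polr3e. These partners both lay higher in brain. Polr3d (ENSMUSG00000000776.13; chr14:70438757-70443447, minus strand) had 10.5, 10.3 and 12.1 CPM in wild-type brain and 6.48, 6.43 and 8.13 CPM in wild-type liver. The knockout libraries had 11.1, 11.2 and 11.7 CPM in brain and 6.26, 7.16 and 6.17 CPM in liver. No brain library reached down to a liver library, and the log2 difference was 0.65 ± 0.16 (1.57-fold, edgeR adjusted p = 0.00618) in wild type and 0.78 ± 0.14 (1.72-fold, adjusted p = 0.00124) in knockout. Polr3e (ENSMUSG00000030880.14; chr7:120917744-120947432, plus strand) had 19.9, 18.5 and 23.6 CPM in wild-type brain and 12.8, 15.1 and 16.4 CPM in wild-type liver. Its knockout libraries had 16.6, 20.5 and 21.2 CPM in brain and 10.6, 12.2 and 14.4 CPM in liver. Within each genotype the tissues did not overlap, although knockout brain replicate 1 (16.6 CPM) was near wild-type liver replicate 3 (16.4 CPM). The log2 difference was 0.49 ± 0.15 (1.40-fold, edgeR adjusted p = 0.0162) in wild type and 0.63 ± 0.16 (1.55-fold, adjusted p = 0.00795) in knockout. The Polr3e call in wild type was lost without brain replicate 3 (0.34, adjusted p = 0.0884) or without liver replicate 1 (0.38, adjusted p = 0.0637), and the call in knockout without brain replicate 3 (0.55, adjusted p = 0.0501).

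Brf1, Brf2 and Maf1. Brf1 (ENSMUSG00000011158.8; chr12:112960085-113000704, minus strand) spanned 22.0 to 28.2 CPM over the 6 brain libraries and 21.7 to 24.3 CPM over the 6 liver libraries. Its log2 difference was 0.04 ± 0.11 in wild type (edgeR adjusted p = 0.728) and 0.10 ± 0.12 in knockout (adjusted p = 0.475), and its tissues overlapped in both genotypes, while those of Polr3a, Polr3gl and Brf2 overlapped in wild type. Brf2 (ENSMUSG00000031487.5; chr8:27123364-27128680, minus strand) spanned 5.60 to 6.97 CPM in brain and 3.84 to 5.74 CPM in liver. Its log2 difference was 0.32 ± 0.20 (adjusted p = 0.18) and 0.34 ± 0.18 (edgeR adjusted p = 0.122). The log2 ratio of Brf2 to Brf1 counts differed between brain and liver by 0.29 in wild type (exact permutation p = 0.2) and by 0.25 in knockout (exact permutation p = 0.1). Under library totals Brf1 (0.89 and 0.98), Brf2 (1.16 and 1.22) and Polr3gl in wild type (1.11) were called higher in brain. Some of the exon sequence of Polr3b, Polr3gl, Brf1 and Brf2 is shared with a gene on the opposite strand (4.7%, 3.6%, 6.8% and 2.3% of their exon bases), so part of their counts is uncertain where strand was not used in counting.

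Maf1 (ENSMUSG00000022553.16; chr15:76351294-76354380, plus strand) had 22.7, 23.6 and 20.8 CPM in wild-type brain and 15.2, 15.3 and 16.1 CPM in wild-type liver. The knockout libraries had 23.8, 21.3 and 19.7 CPM in brain and 15.4, 14.9 and 11.6 CPM in liver. All brain libraries lay above all liver libraries. The log2 difference was 0.53 ± 0.11 (1.44-fold, edgeR adjusted p = 0.00256) in wild type and 0.62 ± 0.15 (1.53-fold, adjusted p = 0.00628) in knockout. Set against Polr3a in the same library, which needs no scaling, the log2 ratio of Maf1 to Polr3a was -0.42 ± 0.08 in wild-type brain and -0.98 ± 0.13 in wild-type liver (SD, n = 3), 1.48-fold higher in brain. In the knockout it was -0.46 ± 0.16 and -0.99 ± 0.33, 1.43-fold higher in brain. The tissues did not overlap in this ratio in either genotype, and the exact permutation p was 0.1 in each.

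**Figure D3:**
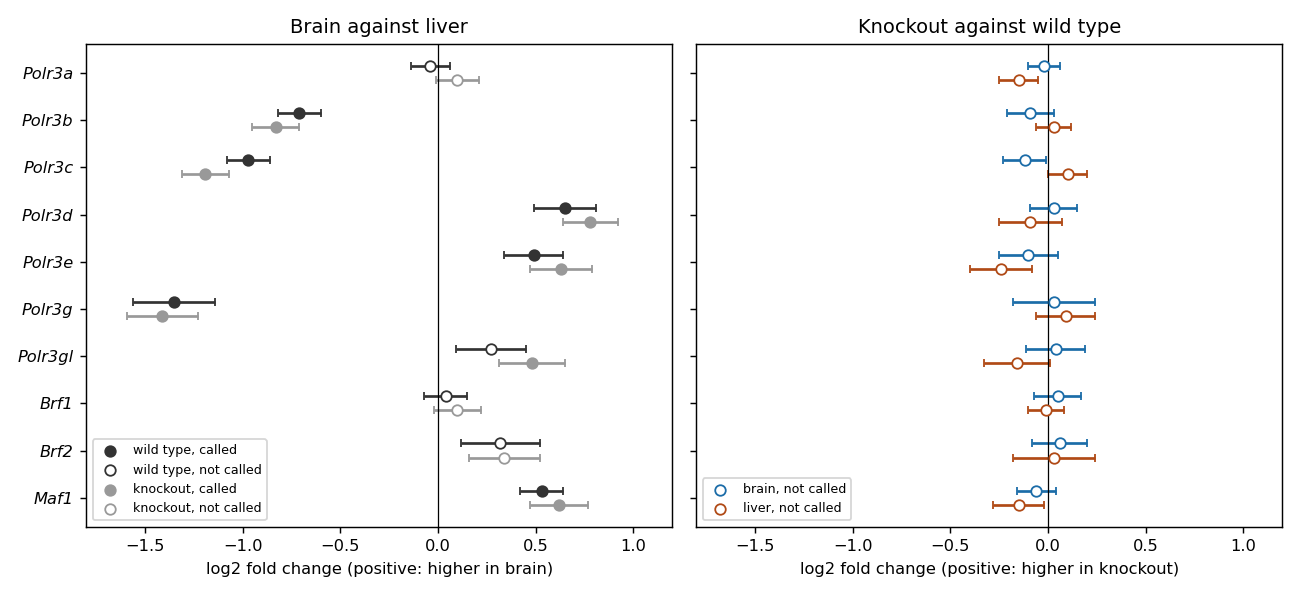
Log2 fold changes (horizontal axes) with SE for the 10 genes from edgeR fits, brain against liver on the left (dark, wild type; grey, knockout) and knockout against wild type on the right (blue, brain; orange, liver); filled points passed an adjusted p of 0.05. On the left 6 wild-type and 7 knockout values are filled and reach from -1.41 to 0.78, and on the right none is filled and all lie between -0.24 and 0.10.

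Markers of other cell types also differed between the tissues. Besides neuron and hepatocyte markers, others were called higher in wild-type liver with TMM scaling, where 34.7% of all genes were. These were 4 of 4 endothelial, 3 of 5 macrophage and microglia, 3 of 4 proliferation and 3 of 3 red cell markers tested. The remaining proliferation marker was not called and lay higher in brain (log2 difference 1.05). In wild-type brain, where 43.9% of all genes were called higher, 4 of 4 astrocyte markers (median log2 difference 6.22) and 4 of 4 oligodendrocyte markers (9.62) were. So were 2 of 2 choroid plexus and 3 of 3 cerebellar markers tested. Summed endothelial markers were at 37.8 to 42.6 CPM in wild-type brain and 168 to 198 CPM in wild-type liver. Summed proliferation markers were at 3.19 to 5.69 CPM and 13.3 to 16.8 CPM. Their part in the levels of the polymerase genes was not tested.

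The second comparison asked whether loss of Vaultrc5, itself a product of RNA polymerase III, goes with a change in the genes of the enzyme. None of the 10 genes was called in brain or in liver. In brain the log2 fold changes (knockout minus wild type) ran from -0.12 ± 0.11 for Polr3c to 0.06 ± 0.14 for Brf2, with an adjusted p of 1 for each. In liver they ran from -0.24 ± 0.16 for Polr3e to 0.10 ± 0.10 for Polr3c, with edgeR adjusted p-values from 0.992 to 0.999. The count of 0 of 10 stands beside 0% of all genes called in brain and 0% in liver. The deleted gene itself was not called in liver (Vaultrc5, edgeR unadjusted p = 3.14e-05, adjusted p = 0.333), where its counts fell from 33, 39 and 48 to 0, and it did not pass the low-count filter in brain, so 0 calls does not show that no gene differed. At an unadjusted p under 0.05 it was again 0 of 10 in both tissues, where 0.675% of all genes passed in brain and 3.5% in liver. These counts over all genes moved with single libraries and with the design. They went in brain from 122 to 298, 615 and 203 without wild-type replicate 1, wild-type replicate 2 and knockout replicate 1, and in liver from 536 to 1136 without knockout replicate 3, where 1 of the 10, Polr3e, then passed. With the replicate block they were 406 in brain and 983 in liver, and in brain 280 with all 12 libraries in a single fit and 78 with the DESeq2 Wald test, each with 0 of the 10. The DESeq2 Wald test also called 0 of the 10 in either tissue, and 0 genes in all in brain and 10 in liver. With the replicate number as a block, since the liver numbers pair, 2 genes were called in liver and none of them was among the 10.

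Polr3e had the largest genotype difference of the 10 genes in liver. It had 12.8, 15.1 and 16.4 CPM in wild type and 10.6, 12.2 and 14.4 CPM in knockout, so the groups overlapped, with an unadjusted p of 0.165 in edgeR's test. Within same-numbered liver pairs Polr3e was lower in knockout in 3 of 3, and with the replicate block its log2 fold change was -0.25 ± 0.11 (edgeR unadjusted p = 0.0637, adjusted p = 0.802). Polr3a and Polr3gl were also lower in knockout in 3 of 3 pairs and Polr3c higher in 3 of 3. These 4 of 10 stand beside 28.8% of all genes with a single sign in 3 of 3 liver pairs, and none of the 10 was called with the block. Polr3a had 33.1, 29.8 and 29.5 CPM in wild-type liver and 29.2, 24.1 and 29.3 CPM in knockout liver. Of the 10 genes 1, Polr3a, had liver groups that did not overlap, where 9.62% of all genes had none; its nearest libraries were at 29.5 and 29.3 CPM. Its log2 fold change was -0.15 ± 0.10 (edgeR unadjusted p = 0.178), and its lowest value was in knockout replicate 2, the library with the highest macrophage marker sum. That library also had the highest proliferation sum (23.8 CPM against 11.6 to 16.8 CPM in the other liver libraries). Its hepatocyte sum was lowest (58200 CPM against 72200 to 94000 CPM), as were its neuron (25.7 CPM) and astrocyte sums (19.6 CPM). The part of that library's cell content was not tested. In brain 0 of 10 did not overlap, against 4.23% of all genes. The median absolute log2 fold change of the 10 genes was 0.05 in brain and 0.10 in liver, beside 0.10 and 0.12 for all genes tested. Without knockout replicate 2 it was 0.11 in brain and 0.06 in liver, beside 0.12 for all genes in each.

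Maf1, the repressor, had log2 fold changes of -0.06 ± 0.10 in brain and -0.15 ± 0.13 in liver, neither passing edgeR's test. The within-library ratios also overlapped between genotypes. Polr3g to Polr3gl differed by -0.02 in brain (exact permutation p = 1) and by 0.27 in liver (exact permutation p = 0.2, adjusted 0.343). The liver ratio was higher in knockout in 3 of 3 same-numbered pairs (exact sign-flip permutation p = 0.25, the smallest that 3 pairs allow). Maf1 to Polr3a differed by -0.04 in brain (exact permutation p = 0.9), and Brf2 to Brf1 by 0.01 in brain and 0.05 in liver (exact permutation p = 0.8 and 0.9).

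The difference of the genotype effects between liver and brain was tested over all 12 libraries. It ran from -0.22 for Polr3gl to 0.20 for Polr3c, with an edgeR adjusted p of 1 for each of the 10. None of the 10 was called, beside 0% of all genes, and 0 of 10 had an unadjusted p under 0.05, beside 2.43% of all genes. That count over all genes, 489, was 813 without liver knockout replicate 3 and 909 with the replicate block, again with 0 of the 10. The DESeq2 Wald test called 1 gene in all and 0 of the 10. The same term tests whether the tissue difference depends on genotype, so the Polr3gl call among knockout libraries alone was not shown to differ from wild type.

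The other genes of the machinery were read from lists by function, with TMM scaling; the shares of all genes called higher in brain and in liver were 43.9% and 34.7% in wild type and 43.5% and 35.2% in knockout. Of 3 other subunits of the enzyme, 1 was called higher in brain and 1 higher in liver in both genotypes. Polr3k was higher in brain by 0.70 ± 0.11 on the log2 scale in wild type, Crcp was higher in liver (-0.75 ± 0.13), and Polr3f, the third protein of the promoter-opening subcomplex, had 0.03 ± 0.13 (edgeR adjusted p = 0.834). Of 7 subunits shared with RNA polymerase I or II, 5 were called higher in liver and 0 higher in brain in both genotypes, led in wild type by Polr2l (-1.13 ± 0.14) and Polr1d (-0.99 ± 0.11). Tbp and Bdp1, the partners of Brf1 in TFIIIB, were both higher in brain, by 0.54 ± 0.14 and 0.39 ± 0.10. Of the 7 genes for TFIIIC and TFIIIA, which bind internal promoters, 1 was higher in brain and 2 higher in liver in wild type, and 0 and 2 in knockout. Of the 5 genes for SNAPc, the factor that works with Brf2, 3 were higher in brain and 1 higher in liver in wild type, and 2 and 1 in knockout, led by Snapc1 (2.05 ± 0.13 in wild type).

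Subunits specific to the other polymerases also went both ways. Of 6 specific to RNA polymerase I, 1 was higher in brain and 3 higher in liver in wild type. Of 7 specific to RNA polymerase II, 2 were higher in brain and 4 higher in liver in wild type. These directions also rest on the scaling. Under library totals, where 61.7% of all genes were called higher in brain in wild type and 62.1% in knockout, 0 of the 7 shared subunits were called higher in liver and 2 higher in brain in either genotype, and of the other enzyme subunits 2 of 3 were called higher in brain and 0 in liver. In wild type the calls higher in brain then numbered 6 of 7 for TFIIIC and TFIIIA, 4 of 5 for SNAPc, 3 of 6 for RNA polymerase I and 5 of 7 for RNA polymerase II, with 1 call higher in liver among them, in the RNA polymerase II list. Of the genes named, Crcp turned to 0.09 in wild type (adjusted p = 0.584), and Polr2l (-0.28, adjusted p = 0.0844) and Polr1d (-0.15, adjusted p = 0.283) were no longer called. Polr3f was then called higher in brain (0.87, edgeR adjusted p = 0.000521). Tbp and Bdp1 were both called higher in brain under either scaling. No gene of these lists was called between genotypes, in brain or in liver.

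**Figure D4:**
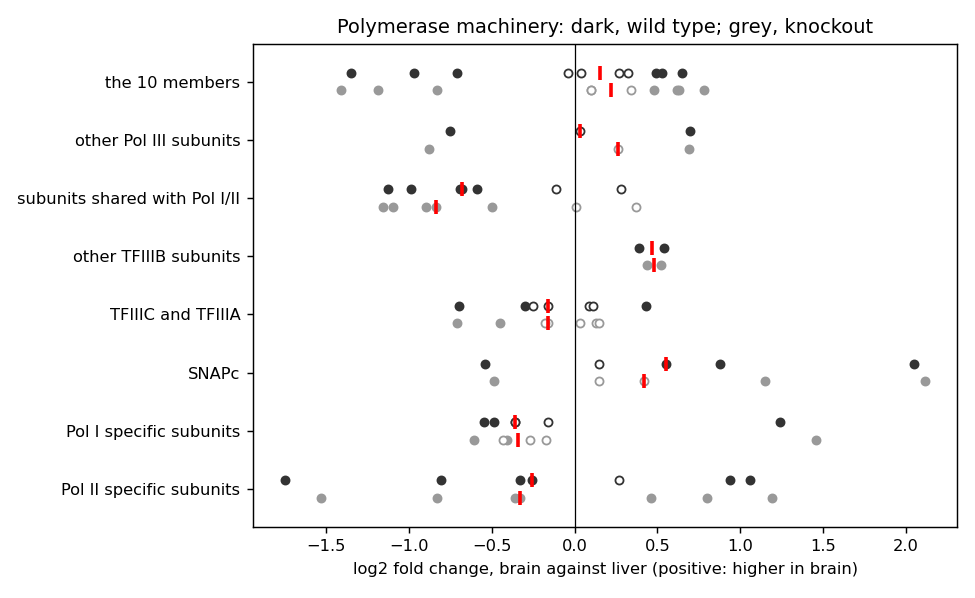
Log2 fold changes of brain against liver (horizontal axis) for the 10 genes and for 7 lists of polymerase and transcription factor genes, in wild type (dark) and knockout (grey); each point is a gene, filled where its adjusted p was under 0.05, and red ticks are list medians. Every list but the other TFIIIB subunits has genes on both sides of 0, and the median of the shared subunits is -0.68 in wild type while that of the 10 genes is 0.16. These values are with TMM scaling, and under library totals the 2 medians are 0.16 and 1.00.

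Transcripts made by the enzyme were recorded as well. Of 7 tested in wild type, 2 were called higher in brain (43.9% of all genes) and 4 in liver (34.7%), and under library totals 3 (61.7%) and 2 (21.2%). The 4 in liver were Vaultrc5, Rn7s1, Rn7s2 and Rpph1. Under library totals Vaultrc5 (-3.15, edgeR adjusted p = 0.000452) and Rn7s2 (-1.58, adjusted p = 0.00111) stayed called, and Rn7s1 (-0.35, adjusted p = 0.222) did not. Summed over the list, TMM-scaled levels were 34600 to 43000 CPM in wild-type brain and 78900 to 90700 CPM in wild-type liver. The Y RNA genes Rny1 and Rny3 were higher in brain, by 7.04 ± 0.40 and 4.66 ± 0.39 on the log2 scale. Rny1 had 1392, 915 and 808 counts in wild-type brain and 9, 7 and 3 in wild-type liver. Rn7sk, the 7SK RNA, had 0.11 ± 0.18 (edgeR adjusted p = 0.6), and Rpph1, the RNA of RNase P, had -0.67 ± 0.21 (adjusted p = 0.0207). Under library totals Rpph1 turned to 0.17 and was not called (edgeR adjusted p = 0.49), and Rn7sk was called higher in brain (0.95, adjusted p = 0.00187). Rn7s1 and Rn7s2 are near-identical copies, so the split of reads between them is uncertain. These counts are levels of RNA, not rates of transcription.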

How the data were processed

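Total RNA libraries from 12 samples were compared, 3 in each of 4 groups of tissue and genotype as titles and genotype labels give them. TRIzol RNA, per the labels' protocols, was treated with DNase, depleted of ribosomal RNA, made into stranded libraries by ligation and sequenced as single-end reads. The submitters' processing notes name cutadapt, STAR and mm10; how reads were counted, and whether strand was used, is not given in the sources used here. The authors deposited expected counts per gene, of which 5.06% to 5.71% per library are not whole, and these were rounded. All 55450 identifiers and symbols matched GENCODE M21 (GRCm38), which gave the coordinates and exon lengths.

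Genes were tested with edgeR 4.0.16 (R 4.3.3; quasi-likelihood F-test, robust, TMM, filterByExpr with a minimum count of 10 and total of 15) and Benjamini-Hochberg adjustment over all genes at 0.05. Each comparison used its own 6 libraries, and the difference of genotype effects used all 12. SE is the absolute log2 fold change over the square root of F. CPM are on a single TMM scale over the 12 libraries. Ratios of counts (pseudocount 0.5) were tested by a two-sided exact permutation test, 3 against 3, over 12 tests. Scripts were tested on simulated counts. The genes and lists were chosen with earlier results of these data known. Every one of the 10 is named, and of each other list at most the 2 called genes with the largest change. Beside these, Vaultrc5 is named as the targeted gene. Polr3f, Rn7sk, Rpph1, Rn7s1, Rn7s2 and Ttr were named after their values were seen. A further subunit is not reported here.

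The 12 pairs of replicates differed beyond sampling noise (chi-square 27.2 to 227.6 times its degrees of freedom), so each was counted. Same-numbered wild-type and knockout liver libraries deviated together (r = 0.32, 0.34 and 0.38 over 13938 genes); the pairing comes from the titles' replicate numbers. The alternatives were DESeq2 size factors or library totals, the DESeq2 1.42.0 Wald test, other filters, robust estimation off, all libraries in a single fit, a replicate block, a pseudocount of 5 and leaving out each library.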

Additional observations from a re-analysis of the deposited data

How the results depend on the processing

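The loss of Vaultrc5 itself was not called in liver, and the split of calls between brain and liver rests on scaling. The count of genes called between genotypes, 0 in liver, was 10 with the DESeq2 Wald test, 4 with no low-count filter, 2 with the replicate block and 0 to 1 without each library in turn. For the difference of effects it was 1 with the DESeq2 Wald test and 2 with the replicate block. None of the 10 genes was called between genotypes under any of these. With the replicate block 6 of the 10 were called between tissues in wild type and 7 in knockout, as without it, and it changed no other call of the 10 genes. In brain, wild-type and knockout libraries numbered 1 and 2 deviated together (r = 0.67 and 0.63), and those numbered 3 did not (r = -0.02). Same-numbered libraries of different tissues did not (r = 0.01 to 0.04). With the replicate block the common dispersion between genotypes fell from 0.0587 to 0.0184 in brain and from 0.0434 to 0.023 in liver. The log2 fold changes and SE given for brain are without the block. Library totals turned the sign of Polr3b (-0.01) and Brf2 (-0.01) between genotypes in liver, of Polr3a (0.80) and Polr3b (0.13) between tissues in wild type, and of Polr3b (0.05) in knockout. They also ended the Polr3c call in wild type and added 4 calls higher in brain in wild type and 3 in knockout. Over the length of the longest protein-coding transcript, chosen after seeing the data, the Polr3g share was 15.7%, 15.4%, 36.2% and 40.6% in wild-type brain, knockout brain, wild-type liver and knockout liver.

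Leaving out 1 library at a time turned the sign of 36 values of single genes, none of them called. Between genotypes in brain the log2 ranges were -0.04 to 0.02 for Polr3a, -0.01 to 0.12 for Polr3d, -0.17 to 0.01 for Polr3e, -0.09 to 0.19 for Polr3g, -0.06 to 0.17 for Polr3gl, -0.05 to 0.13 for Brf1, -0.02 to 0.12 for Brf2 and -0.13 to 0.00 for Maf1. In liver they were -0.01 to 0.06 for Polr3b, -0.17 to 0.02 for Polr3d, -0.03 to 0.17 for Polr3g, -0.06 to 0.02 for Brf1 and -0.12 to 0.17 for Brf2. For the difference of effects they were -0.12 to 0.22 for Polr3g, -0.12 to 0.03 for Brf1, -0.19 to 0.09 for Brf2 and -0.19 to 0.01 for Maf1. Between tissues they were -0.10 to 0.00 for Polr3a and -0.02 to 0.06 for Brf1 in wild type, and -0.01 to 0.12 for Polr3a in knockout. The log2 ratio of Polr3g to Polr3gl between genotypes in brain ran from -0.24 to 0.12. That of Brf2 to Brf1 ran from -0.05 to 0.10 in brain and -0.14 to 0.16 in liver. That of Maf1 to Polr3a ran from -0.13 to 0.04 and from -0.15 to 0.17. The ratio of Polr3g to Polr3gl between tissues stayed between -1.75 and -1.40 in wild type and between -2.05 and -1.79 in knockout. The cause of these changes was not tested.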
